A study of Mus musculus with 6 samples.

Results

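The RNA described here is that of Ocy454 cells, a mouse line labelled as osteocytic, in the 2 libraries of the vehicle group out of 6 libraries in the series. All libraries came from cells grown to confluence at 33 °C, moved to 37 °C for 14 days and then exposed to an agent for 4 h. By the labels, the vehicle group (VEH) received PBS with HCl, the PTH group received 1 nM PTH 1-34, and the YKL-05-093 group received 0.5 µM of this inhibitor of the salt-inducible kinases, with 2 libraries in each group. The methods name DMSO as the solvent of the compound stocks in culture work, and the sources used here do not say whether the vehicle libraries received it. The methods state that a single-cell subclone of the line was used, so the levels below describe 1 clone, and no label says whether the duplicates came from separate cultures. The p-values given for the treated groups therefore measure the spread between these libraries, which may be technical. The vehicle libraries were chosen by their titles alone, and no measured value entered that choice.

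Osteocytes are the cells that remain inside mineralised bone after osteoblasts have laid down its matrix. An osteoblast secretes type I collagen and the proteins that bind and mineralise it, and as it becomes embedded it grows dendrites and turns on genes of phosphate handling, followed late by Sost, which encodes the Wnt inhibitor sclerostin. Osteocytes also receive parathyroid hormone through its receptor, Pth1r, and control osteoclasts through RANKL and its decoy receptor osteoprotegerin. Ocy454 cells were derived from mouse bone with a temperature-sensitive immortalising gene, which is why they are expanded at the lower and matured at the higher temperature.

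Levels are RPKM, the reads of a gene scaled to its length in kilobases and to the depth of its library, which puts genes of different length on a common scale. This scaling left a difference with gene length in vehicle replicate 1, given below, so comparisons between genes of unlike length are approximate. The vehicle libraries held 17505798 and 27983585 reads on genes, and paired values below are replicate 1 and replicate 2 in that order. The libraries of the pair did not resemble each other as closely as those of the treated groups did. Over the 11592 genes that reached 1 RPKM in each of the 6 libraries, the median absolute log2 difference within the pair was 0.317 in vehicle, 0.0949 in PTH and 0.0883 in YKL-05-093. Vehicle replicate 1 was the library that stood apart. Against the median of the other 5 libraries, its genes under 1 kb were lower by a median log2 of -0.36 and its genes of 8 kb and over were higher by 0.53, while in vehicle replicate 2 these medians were 0.12 and -0.14. A level that rests on vehicle replicate 2 alone is the second value of each pair.

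**Figure D1:**
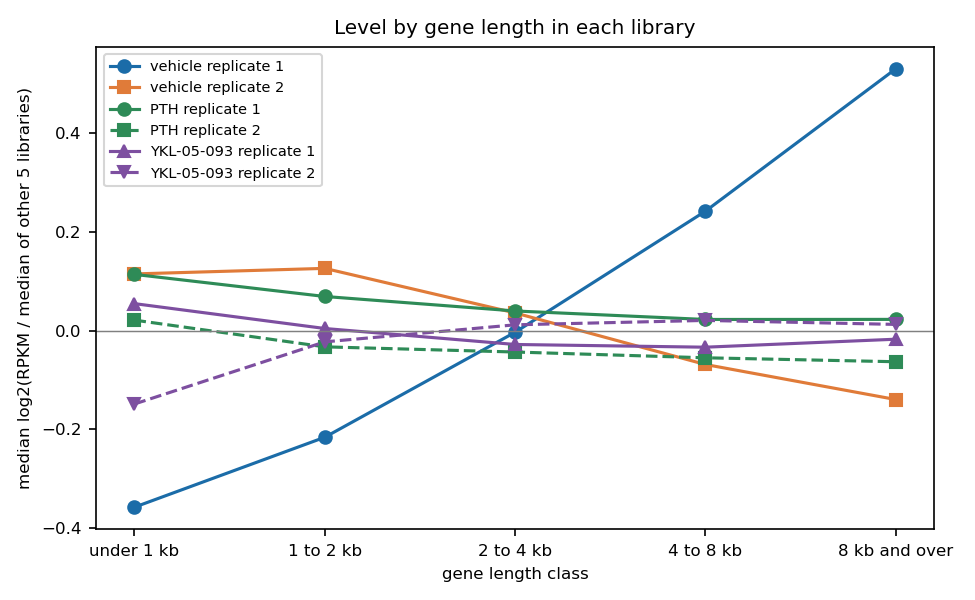
Median log2 ratio of RPKM in each library to the median of the other 5 libraries (vertical axis), for genes in 5 classes of length (horizontal axis), over the same 11592 genes. Vehicle replicate 1 climbs from -0.36 for genes under 1 kb to 0.53 for genes of 8 kb and over, and no other library runs further than -0.15 to 0.13.

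To show what the regulatory start of such genes looks like, promoters of 3 bone genes with very different levels are printed from RefSeq (GRCm38.p6), from 250 bases before the start to 50 bases from the start on. Ibsp, for bone sialoprotein, was among the most abundant matrix genes, Bglap, for osteocalcin, was intermediate, and Sost was at the floor of detection. They lie at chr5:104299037-104299336 on the plus strand, chr3:88384417-88384716 on the minus strand and chr11:101966966-101967265 on the minus strand. Capitals mark the letters TATAAA, the core of a TATA box, or TGTGGT, the core bound by Runx factors, on either strand (TTTATA and ACCACA on the other), and the 2 motifs share no overlap here.
Ibsp: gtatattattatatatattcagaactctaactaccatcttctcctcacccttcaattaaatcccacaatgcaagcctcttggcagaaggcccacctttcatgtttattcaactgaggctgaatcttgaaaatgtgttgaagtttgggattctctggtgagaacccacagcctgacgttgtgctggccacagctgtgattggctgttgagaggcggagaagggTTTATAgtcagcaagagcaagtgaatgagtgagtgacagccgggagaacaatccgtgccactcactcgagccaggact
Bglap: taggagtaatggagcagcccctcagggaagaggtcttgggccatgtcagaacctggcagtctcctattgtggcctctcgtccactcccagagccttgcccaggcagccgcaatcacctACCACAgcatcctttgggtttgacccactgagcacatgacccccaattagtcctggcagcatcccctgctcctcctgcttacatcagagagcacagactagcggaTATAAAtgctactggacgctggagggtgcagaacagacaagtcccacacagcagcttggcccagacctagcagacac
Sost: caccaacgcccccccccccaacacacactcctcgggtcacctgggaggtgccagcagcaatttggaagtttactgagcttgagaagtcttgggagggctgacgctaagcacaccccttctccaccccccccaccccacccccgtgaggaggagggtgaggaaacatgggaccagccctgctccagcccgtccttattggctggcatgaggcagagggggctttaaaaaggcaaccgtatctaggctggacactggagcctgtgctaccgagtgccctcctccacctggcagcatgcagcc
Ibsp had the TATA letters on the other strand from position -28 counted from the start, Bglap had them on the same strand from -27 and the Runx letters on the other strand from -132, and the Sost window held neither. Among all 32851 promoters of this length, 13.6% held the TATA letters and 16.8% the Runx letters. Promoters were matched for 15 of the 19 osteocyte genes and 23 of the 37 osteoblast genes described below. Of the 30 osteoblast promoters, 7 (23.3%) held the TATA letters and 6 (20%) the Runx letters, and of the 19 osteocyte promoters these were 5 (26.3%) and 3 (15.8%). A match is a description of letters, and binding was not measured.

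Of the 39179 listed genes, 11968 had at least 1 RPKM in both vehicle libraries (30.5%), 5204 at least 10 RPKM, 517 at least 100 RPKM and 36 at least 1000 RPKM. Both libraries listed 16068 genes at 0. Among the 21213 protein-coding nuclear genes, 10292 reached 1 RPKM in both libraries (48.5%), and their median was 0.880 RPKM over all and 9.51 RPKM over those that reached it. These shares are the background against which the lists of genes below are read. A place of 1000 among the protein-coding genes corresponds to a mean of 48.9 RPKM.

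RNA had been depleted of ribosomal RNA without selection for poly(A) tails, and the most abundant entries include RNAs that carry none. Rn7sk, the 7SK RNA that restrains transcription elongation, was listed at 43722 and 80410 RPKM. Rpph1, the RNA of ribonuclease P, had 11500 and 33794 RPKM, so its values differed more than 2-fold within the pair, with replicate 2 the higher. The Y RNA Rny3 differed in the opposite sense, with 18836 and 8547 RPKM. Protein-coding nuclear genes took 79.5% and 73.9% of the reads and mitochondrial genes 11.7% and 15.0%.

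Among protein-coding nuclear genes of at least 300 bases, 9 of the 20 with the highest mean level were replication-type histones, whose mRNAs end in a stem-loop, and 4 were ribosomal proteins. Hist1h4d led with 2234 and 3255 RPKM. Some of the histone genes are near-identical copies of each other, so the division of reads among those copies is uncertain. Of 59 replication histone genes, 44 reached 1 RPKM and 33 reached 100 RPKM in both libraries. The other 7 of the 20 were Lars2 (mitochondrial leucyl-tRNA synthetase), Lgals1 (galectin-1), Actb (beta-actin), the predicted gene Gm10800, Eef1a1 (translation elongation), B2m (beta-2 microglobulin) and Vim (vimentin, the intermediate filament of mesenchymal cells). Lgals1 had 1644 and 2587 RPKM, Actb 1927 and 2249.7 RPKM and Vim 927 and 1115 RPKM. Gm10800 had 3029 and 985 RPKM and Lars2 2659 and 1750.05 RPKM, both higher in replicate 1, whereas the 9 histones were all higher in replicate 2. Whether the reads listed under Gm10800 and Lars2 came from mRNAs of these genes was not tested, so their places are uncertain.

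Some genes in general use were listed at low levels. In a set of 18 genes in general use, chosen after their values were seen, none was at 0, but 4 were under 10 RPKM in both libraries. Gapdh, a glycolytic enzyme usually abundant, was listed at 4.38 and 5.19 RPKM and Ppia, cyclophilin A, at 2.69 and 3.72 RPKM, while Hprt, of purine salvage, had 112 and 145 RPKM. Among 83 ribosomal protein genes, 17 were under 10 RPKM in both libraries while the highest, Rpl8, had a mean of 1782 RPKM. How reads with several matching places were counted is not stated in the sources used here, and whether it lowered these values was not tested. Levels of genes with close copies elsewhere in the genome are therefore uncertain.

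Osteoblast genes were abundant. Of 37 osteoblast genes, 35 reached 1 RPKM in both vehicle libraries, 28 reached 10 RPKM and 8 reached 100 RPKM, with a median of 48.3 RPKM. Members of each role, from transcription factors to matrix and its mineralisation, reached 1 RPKM. In a bulk sample, fewer cells that express a gene and less of its RNA per cell cannot be told apart.

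Sparc (ENSMUSG00000018593, chromosome 11 from 55394500 to 55423183 on GRCm38), for the collagen-binding matrix protein osteonectin, was the highest of the list at 761 and 980.3 RPKM, place 22 among protein-coding genes. The chains of type I collagen, Col1a1 and Col1a2, had 389 and 259 RPKM and 292 and 218 RPKM. Both collagen values were higher in replicate 1, and those of Sparc were higher in replicate 2. The chaperone of collagen folding, Serpinh1, had 265 and 321 RPKM, and the type V chain Col5a2 had 187 and 132 RPKM. The 6 collagen genes of the list lay between 20.9 RPKM (Col11a1, mean) and 324 RPKM (Col1a1, mean). Col12a1 was the most uneven of them, with 40.1 and 18.6 RPKM.

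Ibsp (ENSMUSG00000029306, chromosome 5 from 104299171 to 104311469), the bone sialoprotein that nucleates mineral and whose promoter is shown above, had 292 and 314 RPKM, levels that differed little within the pair. The small proteoglycan Bgn (biglycan) had 138 and 139 RPKM, Dcn (decorin) 70.3 and 90.3 RPKM and Ogn (osteoglycin) 90.6 and 80.3 RPKM. The osteopontin gene Spp1 had 63.1 and 77.3 RPKM, below Ibsp in both libraries. Postn (periostin) had 67.2 and 67 RPKM, and Omd (osteomodulin) 29.2 and 40.2 RPKM. Lum (lumican) had 7.03 and 13.5 RPKM, with replicate 2 clearly the higher.

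Osteocalcin, the calcium-binding matrix protein of the late osteoblast, is encoded by neighbouring genes that are near-identical, so their separate values are uncertain. Bglap2 had 17.1 and 27.2 RPKM and Bglap 6.61 and 11.5 RPKM, both higher in replicate 2, and Bglap3 had only 0.0449 and 0.0703 RPKM. The listed values were far below those of Sparc, Col1a1 and Ibsp in both libraries, but how reads shared by the copies were counted is not known.

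Among mineralisation genes, Alpl, the alkaline phosphatase that frees phosphate for mineral, had 61.7 and 67.3 RPKM. Smpd3, the neutral sphingomyelinase required for normal mineralisation, had 57.8 and 51 RPKM and Ifitm5, a membrane protein of mineralising osteoblasts, 46 and 79.9 RPKM. Ank, which moves pyrophosphate out of the cell, had 13.6 and 12 RPKM, and Phospho1, a phosphatase of matrix vesicles, 3.66 and 4.12 RPKM. Enpp1, which makes the mineral inhibitor pyrophosphate, was the lowest of the 6 at 1.21 and 1.04 RPKM. All 6 reached 1 RPKM in both libraries.

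The lineage factors Runx2 and Sp7 (osterix) had 19.5 and 13 RPKM and 46 and 45.5 RPKM. Atf4, needed for late osteoblast function, was the highest of the 7 transcription factors with 78 and 98.3 RPKM. Dlx3 had 5.73 and 4.82 RPKM and Dlx5 3.86 and 4.66 RPKM, and Msx2 had 0 and 0.172 RPKM and was the 1 factor that did not reach 1 RPKM. Of the genes that process collagen, P4ha1 (prolyl hydroxylase) had 114 and 103 RPKM, Lox (cross-linking) 54.6 and 41.9 RPKM, Plod2 (lysyl hydroxylase) 32.9 and 22.1 RPKM and Bmp1 (which trims procollagen) 23 and 22.2 RPKM. Exons of other genes overlap those of Runx2, Smpd3 and Pth1r on the opposite strand and of Ifitm5 on the same strand, and the sources used here do not say whether reads were counted by strand.

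**Figure D2:**
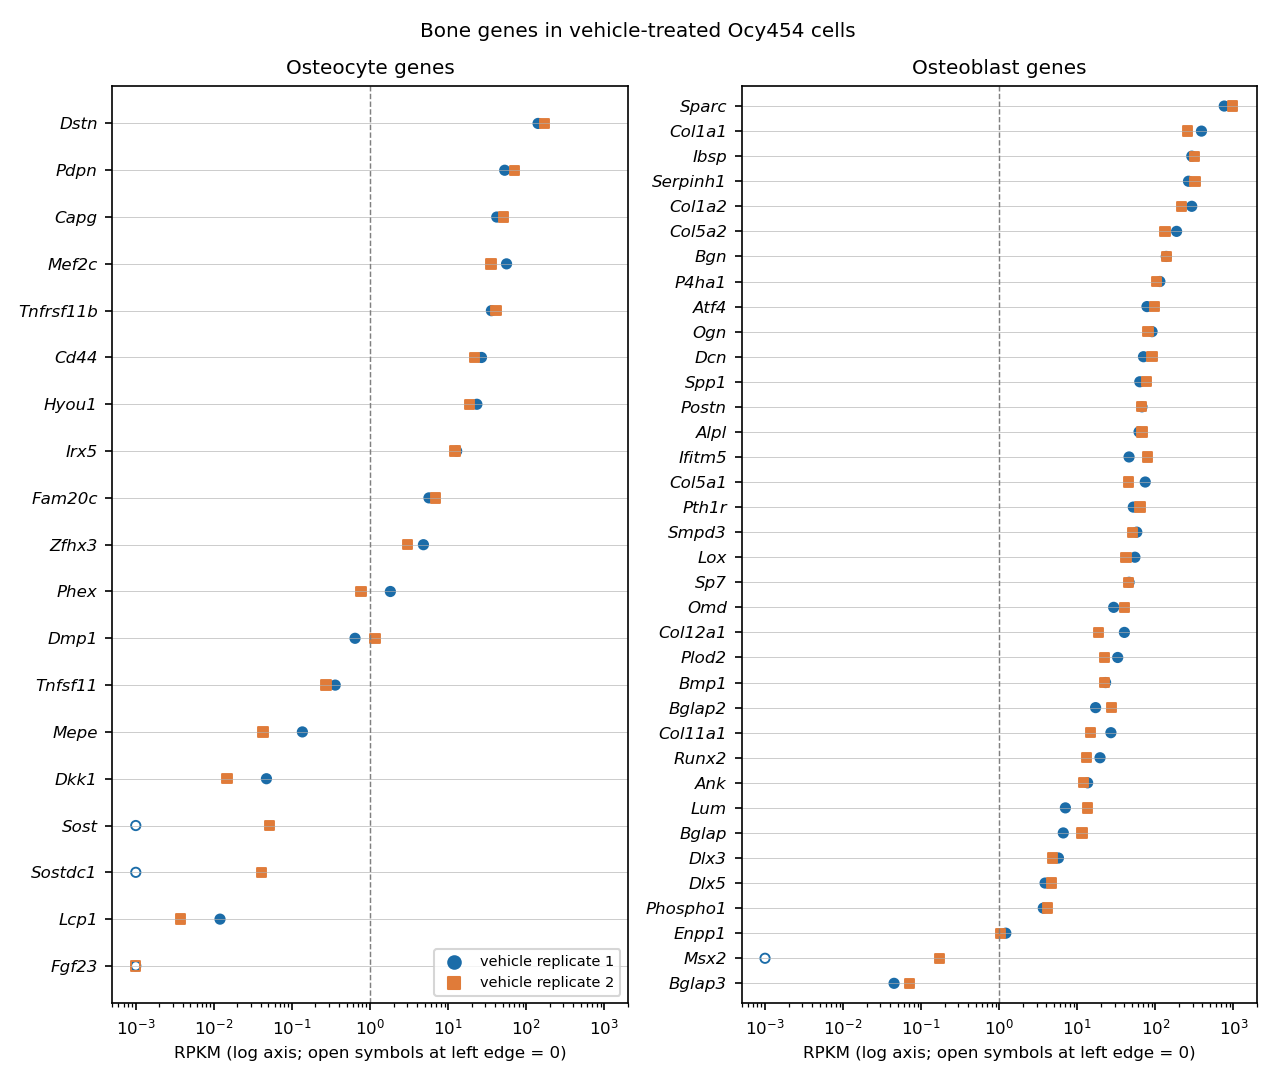
RPKM (log axis) of the osteocyte genes (left) and the osteoblast genes described here (right) in vehicle replicate 1 (circles) and vehicle replicate 2 (squares), with open symbols near the left edge for values of 0 and a dashed line at 1 RPKM. All osteoblast genes shown except Msx2 and Bglap3 lie beyond the line in both libraries, and of the 19 osteocyte genes 10 do, with Sost, Sostdc1, Lcp1, Dkk1, Mepe and Fgf23 far below it.

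The osteocyte genes split into abundant and nearly undetected members. Of 19 genes, 10 reached 1 RPKM in both libraries and 8 reached 10 RPKM, 7 were under 1 RPKM in both, and Phex and Dmp1 passed it in 1 library each. The median was 3.92 RPKM. The cytoskeleton, phosphate and osteoclast control genes each held members above and below 1 RPKM. The cells are labelled osteocytic, and of the late defining markers Sost and Fgf23 were at or under 3 reads in each vehicle library.

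Dstn (destrin), an actin-severing protein, was the highest osteocyte gene at 142 and 170.3 RPKM. Pdpn (ENSMUSG00000028583, chromosome 4 from 143267431 to 143299564), for podoplanin, the membrane protein E11 of early osteocyte dendrites, had 53.1 and 71.3 RPKM, place 745 among protein-coding genes. Capg, which caps actin filaments, had 42 and 51.6 RPKM, and Cd44, the hyaluronan and osteopontin receptor, 26.8 and 21.9 RPKM. All of these were read from more than 1000 reads in each library. Hyou1, a chaperone of low oxygen, had 23.4 and 18.9 RPKM, whereas the actin bundler Lcp1 was at 0.012 and 0.00375 RPKM.

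Mef2c, the factor that drives the distal enhancer of Sost, had 56.1 and 35.5 RPKM. The other transcription factors of the list, Irx5 and Zfhx3, had 12.9 and 12.2 RPKM and 4.83 and 3.002 RPKM. Mef2c was therefore well represented in these libraries while Sost itself was not. Sost (ENSMUSG00000001494, chromosome 11 from 101962458 to 101967015), whose promoter is printed above, had 0 and 3 reads, or 0 and 0.0519 RPKM, where 3 reads in these libraries would be 0.083 and 0.0519 RPKM. Fgf23, the phosphate hormone, had 0 reads in both, which allows up to 0.0946 and 0.0592 RPKM. These limits cover counting error only. The paper, by contrast, reports Sost mRNA measured by quantitative PCR in control cells of this line, with a fall after PTH or the kinase inhibitor. It also reports sclerostin secreted by the line and states that Sost expression was checked routinely at the higher temperature. The low Sost reads therefore describe these libraries and do not show that the line lacks Sost. Why the measurements differ was not tested.

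Dmp1, the matrix phosphoprotein whose promoter is used to mark osteocytes, had 0.643 and 1.15 RPKM from 31 and 89 reads. Phex (ENSMUSG00000057457, X chromosome from 157162075 to 157415312), a membrane peptidase of phosphate control, had 1.82 and 0.764 RPKM from 200 and 134 reads. The libraries put the genes in opposite orders, Phex above Dmp1 in replicate 1 and below it in replicate 2, so their order was not settled. Mepe, the other matrix phosphoprotein, had 4 and 2 reads. Fam20c, the kinase that phosphorylates such proteins, was higher at 5.69 and 6.91 RPKM.

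The osteoclast regulators were unequal. Tnfrsf11b, which encodes osteoprotegerin, had 35.9 and 41.2 RPKM and Tnfsf11, which encodes RANKL, 0.358 and 0.272 RPKM, from 14 and 17 reads. The decoy receptor lay far above the ligand in both libraries. The Wnt inhibitor Dkk1 had 2 and 1 reads and Sostdc1 had 0 and 0.0409 RPKM. In the order of the 14 osteocyte genes above 3 reads, the ranges of 4 of 13 neighbouring pairs overlapped. In that of the 37 osteoblast genes, the ranges of 27 of 36 neighbouring pairs overlapped, so much of the latter order is not fixed by these libraries.

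Markers of cell types outside bone and connective tissue were low. Over 6 lists for skeletal muscle, blood, endothelium, epithelium, neurons and glia, and liver, 2 of 54 genes reached 1 RPKM in both libraries (3.70%, against 48.5% of protein-coding genes), 30 had 3 reads or fewer in each and 16 were at 0 in both. The exceptions were Tubb3, a tubulin best known from neurons, at 13.7 and 19.4 RPKM, and Cd68, a lysosomal protein of macrophages, at 3.9 and 4.14 RPKM. Defining genes of the same lists were at 0 in both libraries, such as Myod1, Myog and Pax7 of muscle, Cdh5 and Cldn5 of endothelium, Epcam and Krt18 of epithelium, Snap25 and Rbfox3 of neurons and Alb and Ttr of liver. Ptprc, the common leukocyte antigen, had 0.021 and 0.0263 RPKM. The genes of these lists were picked as cell type markers, with earlier results of these data known. The gap between their share and that of all protein-coding genes is therefore a description and no test.

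The closer relatives of bone cells showed parts of their programmes. Of 12 mesenchymal progenitor genes, 10 reached 1 RPKM, led by Vim and by Prrx1, a homeobox factor of limb mesenchyme, at 114 and 78.1 RPKM. Twist1, which restrains osteoblast maturation, had 38.4 and 40.9 RPKM, Ly6a (Sca-1) 24.5 and 44.2 RPKM and the PDGF receptor gene Pdgfrb 31.5 and 21.6 RPKM. Lepr, a marker of marrow stroma, was low at 0.233 and 0.226 RPKM, and Thy1 had 0 and 0.0619 RPKM.

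Of 8 smooth muscle and pericyte genes, 4 reached 1 RPKM. Acta2 (smooth muscle actin) and Tagln (transgelin) were high at 176 and 243 RPKM and 64.1 and 94.6 RPKM, and both were higher in replicate 2. Markers of mature smooth muscle and of pericytes were low, with Myh11 at 0.0433 and 0.0108 RPKM, Cnn1 at 0.0726 and 0.0151 RPKM and Rgs5 at 0.0492 and 0.0616 RPKM. All 3 tendon genes reached 1 RPKM, the factor Scx at 9.77 and 16.2 RPKM, Tnmd (tenomodulin) at 2.8 and 5.39 RPKM and Mkx at 4.38 and 3.3 RPKM.

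Chondrocyte genes were low, with 2 of 14 at or above 1 RPKM. Col11a2 was the highest at 11.1 and 8.03 RPKM and the master factor Sox9 had 1.69 and 1.16 RPKM, whereas cartilage collagen Col2a1 had 0.625 and 0.577 RPKM, the growth plate collagen Col10a1 0.0913 and 0.0914 RPKM and aggrecan, Acan, 0 and 0.00487 RPKM. Of 11 adipocyte genes, 3 reached 1 RPKM. Cebpa had 8.16 and 8.71 RPKM and Pparg 1.62 and 1.83 RPKM, while Adipoq, Lep, Retn and Cidec were at 0 in both libraries.

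Among 11 osteoclast genes, Ctsk (cathepsin K) was high at 74.1 and 86 RPKM, and Nfatc1 and Itgb3 had 2.99 and 2.14 RPKM and 2.74 and 1.8 RPKM. The other 8 were under 1 RPKM in both libraries. Acp5, the osteoclast acid phosphatase, and Ocstamp were at 0, and Tnfrsf11a, the receptor RANK, had 0 and 0.00713 RPKM. Csf1r and Ptprc, which osteoclast precursors carry, were likewise under 0.1 RPKM.

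**Figure D3:**
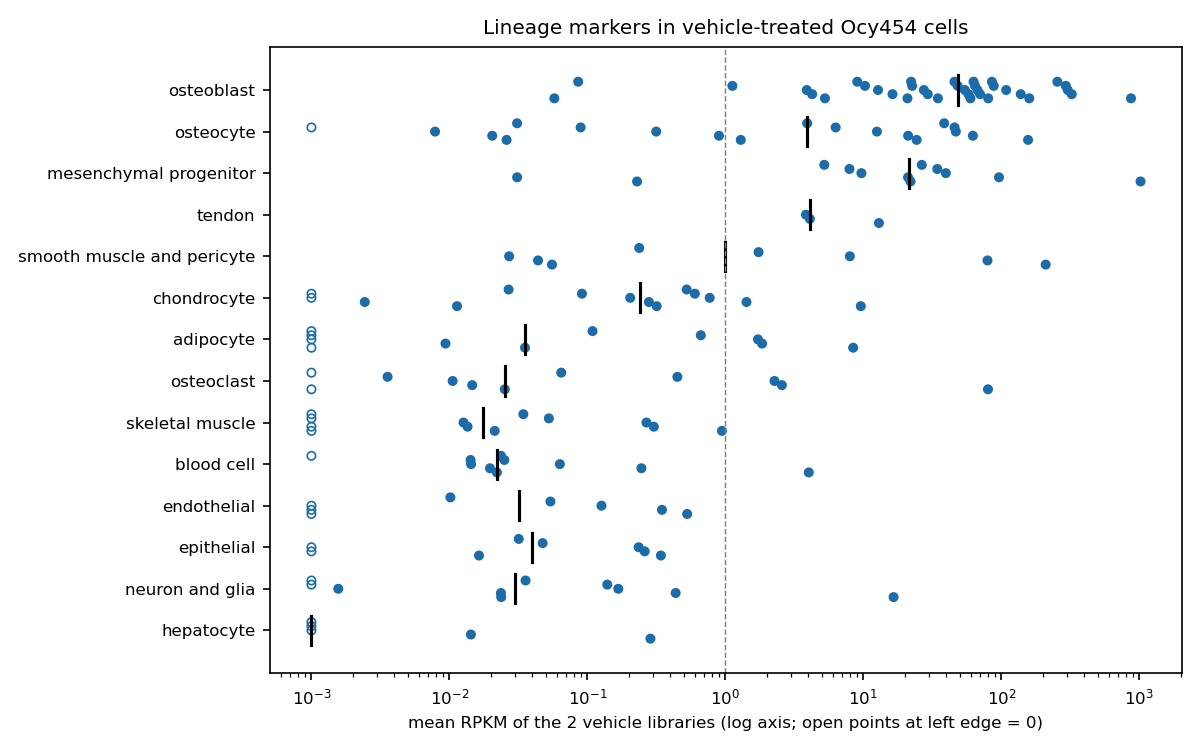
Mean RPKM of the 2 vehicle libraries (log axis) for genes of 14 lineage lists, with open points near the left edge for genes at 0 in both libraries, short black lines for the medians of the whole lists (that of the hepatocyte list is 0 and is drawn at the edge) and a dashed line at 1 RPKM. The osteoblast list has its median at 48.3 RPKM, the smooth muscle and pericyte list has 4 of 8 genes at or above 1 RPKM, and most genes of each list drawn below it lie to the left of the dashed line.

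Receptors for the hormones of bone were unequally represented. Of 48 G protein-coupled receptor genes, 14 reached 1 RPKM in both libraries and 7 were at 0 in both. Pth1r (ENSMUSG00000032492, chromosome 9 from 110722085 to 110747145) was the highest of them at 52.1 and 63.4 RPKM, place 825 among protein-coding genes, while the related Pth2r had 0.0445 and 0.0417 RPKM. The prostaglandin F receptor Ptgfr came next at 24.9 and 21 RPKM, followed by the thrombin receptor F2r at 19.4 and 15.4 RPKM. The lowest value of Pth1r exceeded the highest of Ptgfr, so this order held in both libraries.

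Lysophospholipid receptors were the best represented family of this class, with 7 of 8 at or above 1 RPKM. S1pr1 had 17 and 16.5 RPKM, S1pr2 10.2 and 11 RPKM and Lpar1 10.7 and 10.04 RPKM. Of 6 prostaglandin receptors 2 reached 1 RPKM, and the PGE2 receptors Ptger2 and Ptger3 were at 0 in both libraries. Adrenergic receptors were low, with 1 of 5 at or above 1 RPKM and Adra1b at 2.38 and 2.61 RPKM. The calcium-sensing receptor Casr was at 0 and the calcitonin receptor Calcr at 0.0292 and 0 RPKM.

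Of 36 receptor tyrosine kinases, 22 reached 1 RPKM. Ddr2, a receptor for fibrillar collagen, was the highest at 60.6 and 35.1 RPKM, followed by Ryk at 41.8 and 37.3 RPKM and Axl at 34.6 and 28.4 RPKM, and the ranges of Ddr2 and Ryk overlapped. The FGF receptors Fgfr1, Fgfr2 and Fgfr3 had 27.6 and 20.6 RPKM, 24.3 and 18.1 RPKM and 9.75 and 8.02 RPKM, and Fgfr4 was at 0. Igf2r had 32.4 and 16.5 RPKM, Igf1r 10.1 and 5.9 RPKM and the insulin receptor Insr 4.61 and 3.03 RPKM. Kit and Erbb4 were at 4 reads or fewer in each library.

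Of 12 TGF-beta and BMP receptors, 9 reached 1 RPKM. Tgfbr2 had 45.1 and 35.7 RPKM, the type I BMP receptor Bmpr1a 33.6 and 22.4 RPKM and Tgfbr3 20.5 and 12.7 RPKM, and all were higher in replicate 1. The type II BMP receptor Bmpr2 differed most within the pair, with 15.3 and 7.002 RPKM. Bmpr1b was at 0 and 0.00833 RPKM, far below Bmpr1a in both libraries.

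Of 16 Wnt receptor genes, 11 reached 1 RPKM. Fzd1 had 28.4 and 21.3 RPKM and Fzd2 20.6 and 18.5 RPKM, and the co-receptors Lrp6 and Lrp5 had 18 and 9.68 RPKM and 8.66 and 6.7 RPKM. Lrp4, through which sclerostin is held in bone, had 26.9 and 15.3 RPKM. Receptors of the secreted Wnt inhibitors were thus present while Sost and Dkk1 were near 0. Not all such inhibitors were low, as 5 of the 12 secreted Wnt antagonists in the list described below reached 1 RPKM, Sfrp2 and Dkk3 among them. Lgr4 was the highest receptor of R-spondins at 5.22 and 3.61 RPKM, and Lgr5 and Lgr6 were under 1 RPKM.

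Cytokine and death receptors were broadly present, 18 of 21 at or above 1 RPKM. The interferon gamma receptor chains Ifngr1 and Ifngr2 had 26.3 and 26.5 RPKM and 25.5 and 25.8 RPKM, and the shared signal chain gp130, Il6st, had 31.6 and 17.9 RPKM. Its partners differed, with Lifr at 28.1 and 15.5 RPKM, Il11ra1 at 8.21 and 10.4 RPKM, Il6ra at 2.91 and 2.1 RPKM and Osmr at 1.34 and 1.16 RPKM. Tnfrsf1a, the main TNF receptor, had 23.3 and 24 RPKM.

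Of 27 nuclear receptors, 15 reached 1 RPKM. The thyroid hormone receptor Thra was the highest at 37.4 and 35.1 RPKM, although its exons overlap those of Nr1d1 on the opposite strand, and Thrb had 0.0611 and 0.071 RPKM. The retinoid receptors Rxra and Rarg had 25 and 19.2 RPKM and 13.5 and 13.2 RPKM, and the glucocorticoid receptor Nr3c1 14.1 and 8.76 RPKM. Of the other steroid receptors, the oestrogen receptor Esr1 had 1.12 and 0.699 RPKM and the progesterone receptor Pgr 0. The vitamin D receptor Vdr had 4.41 and 3.31 RPKM, place 8030 among protein-coding genes.

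Of 18 integrin genes, 12 reached 1 RPKM, led by the common beta chain Itgb1 at 285 and 218 RPKM and by Itgb5 at 71.6 and 67.9 RPKM. The alpha chains were lower, Itgav at 22.6 and 13.4 RPKM, Itga5 at 10.1 and 7.73 RPKM and the collagen-binding Itga11 at 5.9 and 3.88 RPKM. Among 12 mechanosensing and gap junction genes, 10 reached 1 RPKM. The purinergic channel P2rx4 had 32.3 and 34.8 RPKM, Panx3, a pannexin of osteoblasts, 25.3 and 25.2 RPKM and Gja1, the connexin 43 that couples osteocytes, 16.3 and 13.9 RPKM. The stretch channel Piezo1 had 15.7 and 8.52 RPKM and Piezo2 0.437 and 0.246 RPKM, so Piezo1 was the higher in both libraries.

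**Figure D4:**
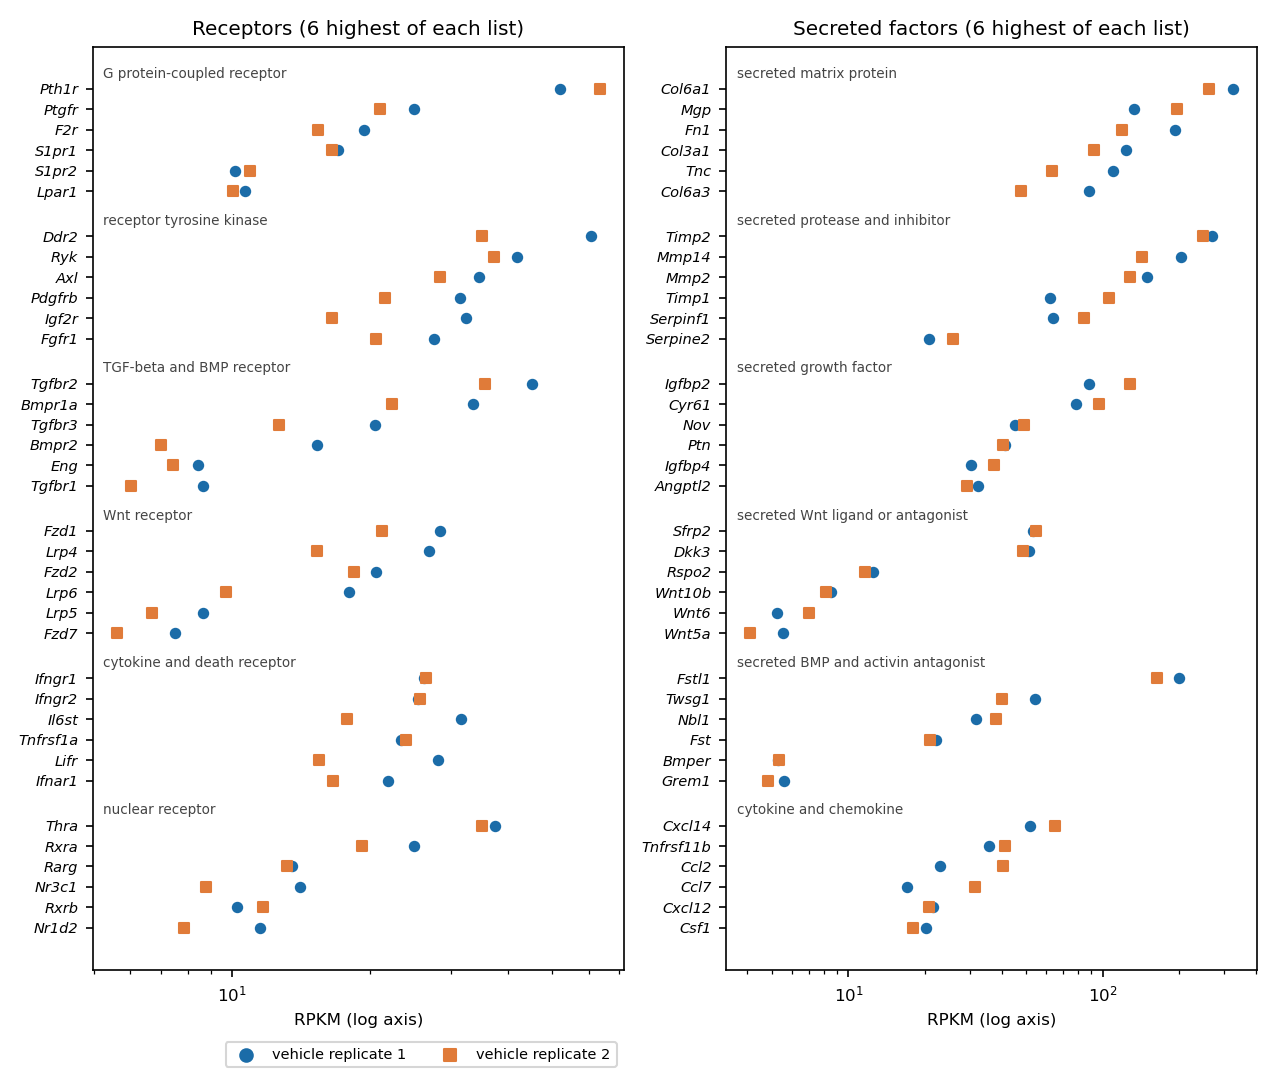
RPKM (log axes) of the 6 genes with the highest mean in each of 6 lists of receptors (left) and 6 lists of secreted factors (right), in vehicle replicate 1 (circles) and vehicle replicate 2 (squares). Pth1r lies apart from the next G protein-coupled receptor, and Col6a1, Timp2 and Fstl1 lead their lists at over 150 RPKM in both libraries.

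The secreted products were dominated by matrix. All 23 matrix genes outside the osteoblast list reached 1 RPKM, 17 of them 10 RPKM, with a median of 40.8 RPKM. Col6a1, of the microfibrils around cells, had 325 and 261 RPKM, Fn1 (fibronectin) 193 and 119 RPKM, Col3a1 124 and 92 RPKM and Tnc (tenascin C) 109.9 and 63.1 RPKM. Mgp, an inhibitor of calcification, had 132 and 196 RPKM and was higher in replicate 2, against the direction of the longer matrix genes. Thbs2 and Thbs1 (thrombospondins) had 79.2 and 51.5 RPKM and 64.8 and 43 RPKM.

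Of 19 secreted proteases and inhibitors, 14 reached 1 RPKM. The inhibitors Timp2 and Timp1 had 268 and 249 RPKM and 62.2 and 106 RPKM, and the gelatinase Mmp2 and its membrane activator Mmp14 had 149 and 128 RPKM and 203 and 143 RPKM. Serpinf1, the matrix factor PEDF, had 63.8 and 84.1 RPKM. The collagenase Mmp13 was low at 0.343 and 0.228 RPKM, as was Mmp9 at 0.421 and 0.477 RPKM.

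Of 52 growth factors and their binding proteins, 32 reached 1 RPKM. Igfbp2 was the highest at 88.5 and 128 RPKM, with Igfbp4 at 30.2 and 37.3 RPKM and Igfbp5 at 29.6 and 18.3 RPKM, while the ligands Igf2 and Igf1 had 21.2 and 19.6 RPKM and 1.84 and 1.18 RPKM. The matricellular genes Cyr61 and Nov had 78.5 and 97.1 RPKM and 45 and 48.9 RPKM, far above the related Ctgf at 3.06 and 3.33 RPKM. Ptn (pleiotrophin) had 41.5 and 40.5 RPKM, Pdgfa 23.3 and 28.7 RPKM and Vegfa 18.8 and 14.8 RPKM. Of the TGF-beta ligands, Tgfb2 and Tgfb3 had 17.7 and 13 RPKM and 13.3 and 12.4 RPKM and Tgfb1 4.52 and 4.41 RPKM, so Tgfb1 was the lowest of the 3 in both libraries. Bmp4 had 12.6 and 11.5 RPKM, Bmp2 7.78 and 6.88 RPKM and Bmp7 was at 0.

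Of 33 secreted Wnt ligands and antagonists, 12 reached 1 RPKM. The antagonists Sfrp2 and Dkk3 were the highest at 53.1 and 54.8 RPKM and 51.5 and 48.5 RPKM, followed by Rspo2, which amplifies Wnt signals, at 12.5 and 11.7 RPKM. The highest ligands were Wnt10b at 8.56 and 8.13 RPKM, Wnt6 at 5.23 and 6.99 RPKM and Wnt5a at 5.52 and 4.1 RPKM. Wnt3, Wnt3a and Wnt8a were at 0, and Wnt1 and Wnt7a were at 3 reads or fewer in each library.

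Of 11 BMP and activin antagonists, 8 reached 1 RPKM, with Fstl1 at 200.1 and 164 RPKM, Twsg1 at 54 and 40.2 RPKM, Nbl1 at 31.7 and 38.1 RPKM and Fst (follistatin) at 22.2 and 21 RPKM. Noggin, Nog, was low at 0.0595 and 0.112 RPKM. Of 25 cytokines and chemokines, 11 reached 1 RPKM. Cxcl14 had 52 and 64.9 RPKM, Ccl2 22.8 and 40.6 RPKM, Ccl7 17 and 31.4 RPKM, Cxcl12 21.5 and 20.7 RPKM and the macrophage factor Csf1 20.3 and 17.9 RPKM. Ccl2 and Ccl7 were higher in replicate 2, whereas Cxcl12 and Csf1 differed little. Il6 had 0.158 and 0.33 RPKM, and Il1b, Csf2 and Csf3 were at 0.

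The route from the PTH receptor to the salt-inducible kinases was well represented. Of 26 genes of this list, 23 reached 1 RPKM. Among the catalytic and regulatory subunits of protein kinase A, Prkaca had 79.7 and 79.2 RPKM and Prkar1a 49.8 and 41.3 RPKM. The salt-inducible kinases were much lower, with Sik3 at 5.22 and 4.05 RPKM, Sik2 at 1.94 and 1.26 RPKM and Sik1 at 1.68 and 1.22 RPKM, and their upstream kinase Stk11 (LKB1) had 12.7 and 11.6 RPKM. Sik3 was the highest of the 3 in both libraries. Of their substrates, Hdac5 had 20.9 and 18 RPKM and Crtc2, Crtc3 and Crtc1 had 5.59 and 4.7 RPKM, 2.53 and 1.73 RPKM and 2.2 and 1.46 RPKM. Gnas, for the stimulatory G protein, was listed at only 0.559 and 0.721 RPKM, but opposite-strand exons of Nespas and Gm20721 overlap it, and whether this lowered its count was not tested.

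Limb identity and cell cycle genes were the last groups described. Of 17 limb and skeletal identity genes, 7 reached 1 RPKM, with Shox2 at 29.8 and 26.2 RPKM, Foxc1 at 21.8 and 19.9 RPKM and Tbx15 at 21 and 14.6 RPKM. The hindlimb factor Pitx1 had 6.42 and 6.51 RPKM. Tbx4, a hindlimb factor, was at 0, and Tbx5, its forelimb relative, had 0 and 0.00909 RPKM. Of 12 cell cycle genes, 11 reached 1 RPKM, with a median of 68.6 RPKM. The inhibitor locus Cdkn2a had 209 and 257 RPKM, alongside Pcna at 135 and 166 RPKM, Cdk1 at 63.2 and 77.5 RPKM and Top2a at 196 and 111 RPKM. Mki67, the proliferation marker, had 46.3 and 19.1 RPKM, the widest log2 difference within the pair (-1.27) among the 557 genes of the lists with a mean of at least 5 RPKM, and its 4 treated libraries ranged from 18.8 to 21.6 RPKM. Cdkn1a (p21) had 3.71 and 3.49 RPKM.

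The other wide differences within the pair were in Bmpr2, Col12a1, Fbn1, Igf2r, Pkd1, Col6a3 and Lrp6, all higher in replicate 1, and in Lum and Ccl7, higher in replicate 2. Of these 10 genes with Mki67, the 8 that were higher in replicate 1 had a length, as used for the RPKM, of 3542 to 15972 bases and the 2 that were higher in replicate 2 had 2072 and 798 bases. Fbn1 (fibrillin-1) had 9.8 and 4.64 RPKM, Pkd1 (polycystin-1) 20.6 and 11 RPKM and Col6a3 88.2 and 47.6 RPKM. The part of the library in these values was not tested.

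The baseline was then set beside the treated libraries, to ask which of the listed genes had left their vehicle level by 4 h. Tests were limma fits of log2(RPKM + 0.1) on the genes that reached 0.5 RPKM in 2 or more libraries. Calls needed an adjusted p under 0.05 together with a change over 2-fold. In PTH against vehicle, 272 of 14261 genes were called (1.91%), 156 higher (1.09%) and 116 lower (0.813%). In YKL-05-093 against vehicle, 93 of 14255 were called (0.652%), 54 higher (0.379%) and 39 lower (0.274%). Of the 557 genes of all lists, 369 were tested in each comparison, and 52 were called for PTH and 21 for YKL-05-093, but the lists were drawn up with results of these data known, so these shares are no evidence about the lists. Both comparisons use the same vehicle libraries. The PTH count was 14 without either PTH library, 398 without vehicle replicate 1 and 670 without vehicle replicate 2, and the YKL-05-093 count was 42 and 322 without vehicle replicate 1 and 2 and 11 and 35 without YKL-05-093 replicate 1 and 2. Without the filter on low values, limma called 0 genes in either comparison, with 2338 and 1733 at an unadjusted p under 0.05.

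Of 13 osteocyte genes tested, 5 were called for PTH, 2 higher and 3 lower (1.91% of all genes tested were called). Pdpn rose to 171 and 163 RPKM (log2 fold change 1.44, standard error 0.20, adjusted p = 0.0148 from limma), Mef2c fell to 17.3 and 15.7 RPKM (log2 fold change -1.43, standard error 0.24, adjusted p = 0.0293 from limma), and Irx5 and Tnfrsf11b fell to 5.38 and 6.16 RPKM and 19.7 and 17.1 RPKM (adjusted p = 0.0181 and 0.0264 from limma). The treated libraries did not overlap the vehicle libraries in any of these, but the rule for a call makes this likely, so it adds no support. Tnfsf11, low in vehicle, rose to 12.6 and 10.6 RPKM after PTH (log2 fold change 4.82, standard error 0.21, adjusted p = 0.000467 from limma) and to 3.09 and 2.57 RPKM after YKL-05-093 (log2 fold change 2.82, standard error 0.26, adjusted p = 0.00959 from limma), the 1 osteocyte gene called for YKL-05-093. At a pseudocount of 0.1 RPKM these log2 changes understate those of low genes. The calls of Pdpn, Mef2c, Irx5 and Tnfrsf11b for PTH were lost without either PTH library, at log2 changes of 1.40 and 1.47 for Pdpn, -1.50 and -1.36 for Mef2c, -1.01 and -1.21 for Irx5 and -1.16 and -0.96 for Tnfrsf11b, the last also without vehicle replicate 2 (-0.96). That of Tnfsf11 for YKL-05-093 was lost without vehicle replicate 1 (2.97) or YKL-05-093 replicate 1 (2.69). With the variance trend fitted to the mean level rather than to reads, the calls of Mef2c and Tnfrsf11b for PTH and of Tnfsf11 for YKL-05-093 were lost as well. The direction was kept in each.

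Of 35 osteoblast genes tested, 7 were called for PTH (1.91% of all genes tested were called). The uncertain osteocalcin copies Bglap and Bglap2 rose to 27.1 and 25.3 RPKM and 68.2 and 54.5 RPKM (adjusted p = 0.0287 and 0.0281 from limma). Smpd3, Sp7, Dlx3 and Phospho1 were among those that fell, Sp7 to 12.2 and 11.1 RPKM (log2 fold change -1.97, standard error 0.16, adjusted p = 0.00191 from limma) and Dlx3 to 1.56 and 1.07 RPKM (log2 fold change -1.94, standard error 0.22, adjusted p = 0.00726 from limma). The abundant matrix genes Sparc and Col1a1 were not called, with Sparc at 1316 and 1108 RPKM and Col1a1 at 430.1 and 371 RPKM after PTH, and their log2 changes were 0.48 (adjusted p = 0.493 from limma) and 0.33 (adjusted p = 0.693 from limma). For YKL-05-093, limma called 0 of the 35, and 7 had an unadjusted p under 0.05, against 1236 of all 14255 genes tested. Apart from that of Smpd3, the PTH calls of the genes named here were lost without either PTH library, with the direction kept and log2 changes, without PTH replicate 1 and 2, of -2.04 and -1.90 for Sp7, -2.19 and -1.69 for Dlx3, -1.58 and -1.75 for Phospho1, 1.53 and 1.62 for Bglap and 1.33 and 1.65 for Bglap2. Those of Bglap and Bglap2 were also lost with the variance trend on the mean value.

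Several genes that were low in vehicle rose after treatment. Of the 41 listed genes that were under 1 RPKM in both vehicle libraries and could be tested, 8 were called higher after PTH. Among all genes tested, 1.09% were called higher after PTH. The lists were drawn up with results of these data known, and low genes can pass the filter through their treated libraries alone. The gap between these shares is therefore a description and no test. The collagenase gene Mmp13 had 2.81 and 1.53 RPKM after PTH (log2 fold change 2.52, standard error 0.34, adjusted p = 0.0131 from limma) and 0.24 and 0.145 RPKM after YKL-05-093. Of the orphan nuclear receptors, Nr4a2 stood at 0.819 and 1.05 RPKM in vehicle and rose to 7.26 and 8.62 RPKM after YKL-05-093 (log2 fold change 2.96, standard error 0.19, adjusted p = 0.00233 from limma), and Nr4a3 at 0.221 and 0.16 RPKM rose to 1.17 and 1.48 RPKM (log2 fold change 2.30, standard error 0.24, adjusted p = 0.0171 from limma). Mmp13 passed the filter only through its PTH libraries and Nr4a3 only through its YKL-05-093 libraries, so their p-values add no support. Among genes well above the floor in vehicle, Pdgfa fell to 4.44 and 4.64 RPKM after PTH, Fzd5 from 8.1 and 4.76 RPKM to 1.2 and 1.09 RPKM, and Thbs1 to 15.3 and 17 RPKM after YKL-05-093. The chemokine Cxcl1 rose from 5.72 and 8.47 RPKM to 46.8 and 46.7 RPKM after PTH and 27 and 24.1 RPKM after YKL-05-093, and Mcam, a pericyte and endothelial adhesion molecule, from 1.91 and 1.57 RPKM to 8.26 and 7.82 RPKM after YKL-05-093. The calls of Mmp13 (2.10 and 2.93), Fzd5 (-2.40 and -2.28), Pdgfa (-2.45 and -2.52) and Nr4a2 (2.34 and 2.44) for PTH were lost without PTH replicate 1 or 2, the log2 changes without each being those in parentheses. For YKL-05-093, without its replicate 1, the calls of Nr4a3 (2.45), Cxcl1 (1.78), Mcam (2.11) and Thbs1 (-1.63) were lost. Those of Nr4a3 (2.45) and Cxcl1 (1.58) were also lost without vehicle replicate 1, and that of Thbs1 (-1.78) without YKL-05-093 replicate 2. With the variance trend on the mean value, the calls of Mmp13 for PTH and of Nr4a3, Cxcl1, Mcam and Thbs1 for YKL-05-093 were lost, and at a pseudocount of 1 those of Nr4a3 (0.97) and Thbs1 (-1.65) for YKL-05-093.

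**Figure D5:**
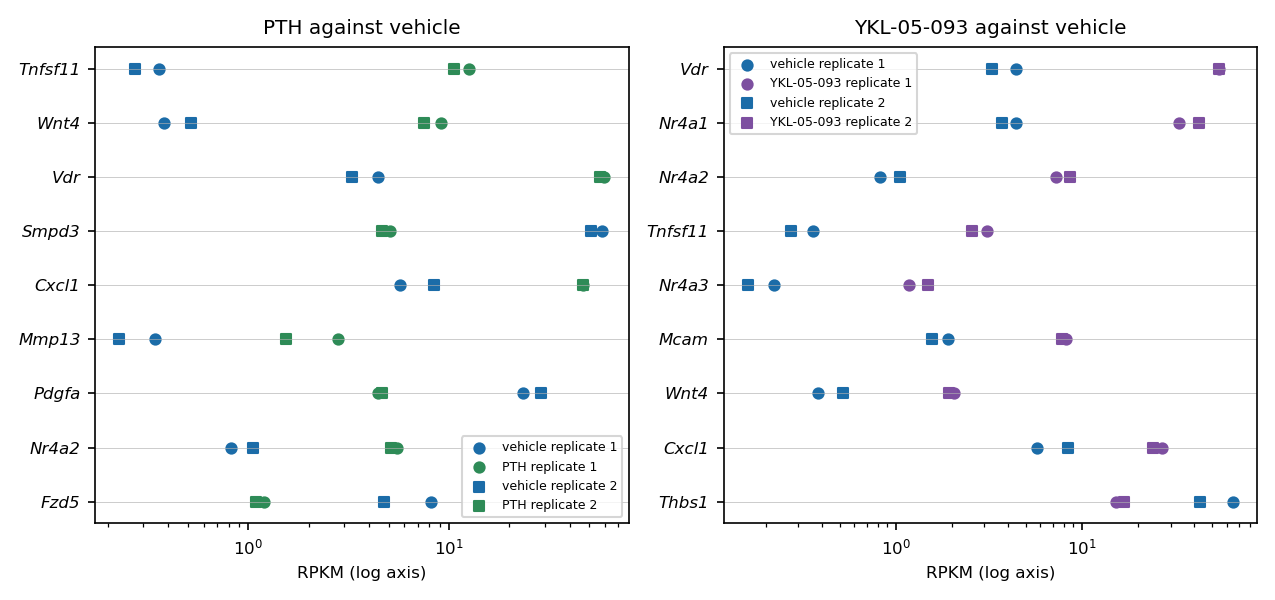
RPKM (log axes) in vehicle (blue) and treated libraries (green or purple), circles for replicate 1 and squares for replicate 2, for 9 of the 10 listed genes with the largest called change after PTH (left) and after YKL-05-093 (right). In each of the rows the treated and vehicle libraries are apart, which the choice of called genes makes likely. On the left 6 of 9 genes and on the right 8 of 9 lie higher after treatment.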

How the data were processed

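Ribosomal-depleted RNA of Ocy454 cells was sequenced as strand-specific paired libraries. According to the methods and the submitters' processing notes, the authors called bases with CASAVA 1.7, aligned reads to mm10 with STAR and counted them on Ensembl genes with HTSeq, and they deposited 1 table of RPKM values for 39179 genes in 6 libraries, with no scaling between libraries. Use of strand in counting and the handling of reads with several matches are not given in the sources used here. Samples were grouped by their titles.

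Levels were taken as deposited and ranked among 21213 protein-coding nuclear genes (GENCODE M21 classes and positions, GRCm38). Read numbers and total depths (17505798 to 27983585 reads) were recovered from the steps of the RPKM values, for 99.7% of the totals, and those of genes with few reads are estimates. A gene at 3 reads or fewer in each library was taken as at the floor, which covers counting error only. Promoters came from RefSeq (GRCm38.p6).

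Treated groups were compared with vehicle by limma 3.58.1 (R 4.3.3) on log2(RPKM + 0.1), on genes that reached 0.5 RPKM in 2 or more libraries, in a separate fit for each comparison, with a variance trend on recovered reads and Benjamini-Hochberg adjustment. A fold change on this scale understates that of low genes. These settings were picked after counts of calls under several settings had been seen, and the members and lists were chosen with earlier results of these data known. Named genes were the 20 highest protein-coding genes, the osteocyte and osteoblast genes, the 6 highest of each other list with its defining genes at 0 or near it, the 10 widest pair differences and the 10 largest called changes per comparison, and other genes named were chosen after their values were seen. Some genes that meet this rule are not reported here, while counts and medians cover whole lists. An exact permutation test of 2 against 2 libraries cannot go below p = 0.333 and was not used. The test step was checked on simulated data in which libraries did not differ with gene length. That check therefore does not cover the difference that sets vehicle replicate 1 apart. Alternatives were pseudocounts, filters, scaling, variance trends, a joint fit, a replicate block, other RPKM thresholds, TPM and leaving out each library.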

Additional observations from a re-analysis of the deposited data

How the results depend on the processing

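The number of genes at 1 RPKM or more in both vehicle libraries (11968) stayed within 1.5 times itself at a threshold of 0.5 RPKM (13158) or 2 RPKM (10517), in TPM (12723), without mitochondrial and short genes (11686) and with either vehicle library alone (12309 and 12449). Of the 31 lists, those whose count moved by more were the chondrocyte genes, with 4 at 0.5 RPKM and 1 at 2 RPKM, the adipocyte genes, with 1 at 2 RPKM, and the skeletal muscle genes, with 1 at 0.5 RPKM and in TPM. The counts of called genes moved more. For PTH, limma called 0 genes without the filter (2338 at an unadjusted p under 0.05), 160 with a variance trend on the mean value and 14 to 670 when 1 library was left out. For YKL-05-093 it called 55 with a pseudocount of 1, 0 without the filter (1733 at an unadjusted p under 0.05), 173 in 1 fit of all 6 libraries, 6 with the trend on the mean value and 11 to 322 when 1 library was left out. The cause was not tested. Where 1 library of an arm remained, it was assumed to vary like the others. With the replicate number as a block, 441 genes were called for PTH and 216 for YKL-05-093. Same-numbered samples did not deviate together (correlations of -0.0336, -0.0540 and -0.0494), so no pairing by number was seen. These correlations cannot exclude a pairing, as the vehicle difference follows gene length and could mask it. None of the genes whose calls were refitted, the largest called changes and the called osteocyte and osteoblast genes, changed direction under the alternatives run. The genes that were not called were not followed in this way. Precision is limited by 2 vehicle libraries that differ with gene length, and genes at 3 reads or fewer were below what this depth can rank.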
